A study of Mus musculus with 6 samples.

Results

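The levels of 10 genes of the flow-sensing and cerebral cavernous malformation (CCM) pathways were followed in whole mouse hearts at embryonic day 13.5. The genes were Krit1, Ccm2, Heg1, Klf2, Klf4, Nos3, Thbd, Edn1, Ece1 and Piezo1, chosen by symbol from the 45792 genes of the count table, and all 10 were found. The study deleted Ino80, the catalytic subunit of a chromatin remodeling complex, from the endothelium and asked how this affects the growth of the heart wall. Counts of RNA sequencing reads were deposited for 3 hearts labelled wild-type and 3 hearts labelled Tie2Cre INO80 flox/flox, called control and mutant hearts here. The labels give C57BL/6 as the strain, while the study describes mixed backgrounds and counts every genotype except the conditional knockout as a control. The Tie2Cre transgene is active in endothelial cells, including the endocardium, and in their descendants and in blood cells, so that cardiomyocytes in a mutant heart were to keep Ino80.

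Endothelial cells read blood flow and change their gene expression in response. Piezo1 is a channel opened by stretch and shear, and the transcription factors Klf2 and Klf4 are switched on by laminar flow. Their known targets include Nos3, the endothelial nitric oxide synthase, and Thbd, the thrombin receptor thrombomodulin that limits clotting. Flow is known to lower Edn1, the precursor of the vasoconstrictor endothelin, which Ece1 cleaves into its active form. Heg1 is a transmembrane receptor of endothelial and endocardial cells that binds the adaptor Krit1, and Krit1 forms a complex with Ccm2 and Pdcd10. The complex is known to restrain the kinase Map3k3 (MEKK3), which acts through Map2k5 and Mapk7 (ERK5) on MEF2 factors and from there on Klf2 and Klf4. Its loss in the embryonic endocardium is known to disturb cardiac jelly and myocardial growth, and loss in brain endothelium leads to the vascular lesions that gave the complex its name.

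The promoters of Klf2, Klf4 and Edn1 are shown because the first 2 genes are the end point of the kinase arm and Edn1 was the one gene of the 10 whose groups did not overlap. RefSeq promoter sequences on GRCm38.p6, from 250 bases before to 50 after the start, were at hand for 8 of the 10 genes in 13 windows. Nos3 and Thbd were not among them. Both strands were searched for the MEF2 consensus, the KLF box CACCC, which reads GGGTG on the other strand, and the E2F site (TTTNNCGC with C or G at each N), and no MEF2 match overlapped a KLF box. Capitals mark a MEF2 match or a KLF box. The Klf2 stretch lies at chr8:72318882-72319001 on the plus strand, the Klf4 stretch at chr4:55532566-55532685 on the minus strand and the Edn1 stretch at chr13:42301356-42301475 on the plus strand, each 120 bases long and upstream of the transcription start.
Klf2: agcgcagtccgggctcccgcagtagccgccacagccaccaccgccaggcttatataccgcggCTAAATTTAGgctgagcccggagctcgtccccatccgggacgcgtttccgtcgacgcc
Klf4: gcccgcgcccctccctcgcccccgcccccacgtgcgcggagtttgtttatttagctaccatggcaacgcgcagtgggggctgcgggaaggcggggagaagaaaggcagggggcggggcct
Edn1: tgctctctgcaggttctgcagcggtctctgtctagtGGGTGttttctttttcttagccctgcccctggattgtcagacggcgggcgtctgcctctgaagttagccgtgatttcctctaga

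The only MEF2 match among the 13 windows was in Klf2, CTAAATTTAG, which began 118 bases before the start. Of 32851 promoter windows of all genes, 3.19% held a MEF2 match. A KLF box was found in the windows of Klf2, Edn1, Ece1, Piezo1, Heg1 and Ccm2 and not in those of Klf4 and Krit1. That was 8 of the 13 windows (61.5%), close to the 57.5% of all windows. The E2F site was found in 1 of the 4 Ece1 windows and in 2.26% of all windows. A match describes the letters of a window and is no evidence of binding.

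The 10 genes are protein-coding, and their positions are given on GRCm38 from GENCODE vM21. The genes of the complex and its receptor are Krit1 at chr5:3803184-3845564, Ccm2 at chr11:6546887-6596744 and Heg1 at chr16:33684370-33771576. Klf2 is at chr8:72319033-72321656 and Klf4 at chr4:55527143-55532466. Their targets are Nos3 at chr5:24364810-24384474 and Thbd at chr2:148404466-148408188. Edn1 is at chr13:42301476-42307990, Ece1 at chr4:137862237-137965229 and Piezo1 at chr8:122481698-122551329. Counts cover the exons of each gene, so isoforms were not told apart.

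Between 28948836 and 89675692 reads were counted per heart, the most in mutant replicate 1, and any pair of hearts differed by far more than counting error. Genes were compared with edgeR's quasi-likelihood test on counts scaled by TMM to even out differences in library composition, with Benjamini-Hochberg adjustment over 17125 tested genes. All levels below are CPM, counts per M counts scaled in this way. No gene passed an adjusted p of 0.05 (0%), while 9.48% were higher and 9.98% lower in mutant hearts at an unadjusted p under 0.05. DESeq2, the method the study used, was run again here and passed 443 genes as higher (2.67% of those it tested) and 570 as lower (3.43%). These are not the study's own counts, which were smaller in each direction. Ino80 itself was 30.2, 31.6 and 32.7 CPM in the control hearts and 36.5, 33.7 and 31.8 CPM in the mutant hearts. The whole-heart level of Ino80 therefore did not separate the labelled groups (adjusted p = 0.47 by edgeR). These counts cover every exon and every cell of the heart, while the study floxed a single exon and deleted it in the endothelium. In endothelial cells isolated from mutant hearts, the study could not detect Ino80 mRNA by quantitative PCR. In the 10 endothelial markers, summed levels ranged from 881 to 1091 CPM in control hearts and from 970 to 1020 CPM in mutant hearts.

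None of the 10 genes passed the test: 0 reached the adjusted threshold by edgeR or by DESeq2, and 0 an unadjusted p under 0.05 by edgeR, while 1 (Ece1) did so by DESeq2. Of the 10, 4 were higher and 6 lower in mutant hearts, with a median log2 fold change of -0.04 against -0.0017 over all tested genes. The values ran from -0.22 for Thbd to 0.33 for Ece1. In 1 gene, Edn1, all mutant hearts lay above all control hearts, and in 0 all lay below, against 14.3% and 12.8% of all tested genes. The hearts are plotted gene by gene in the panels of levels by heart.

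**Figure D1:**
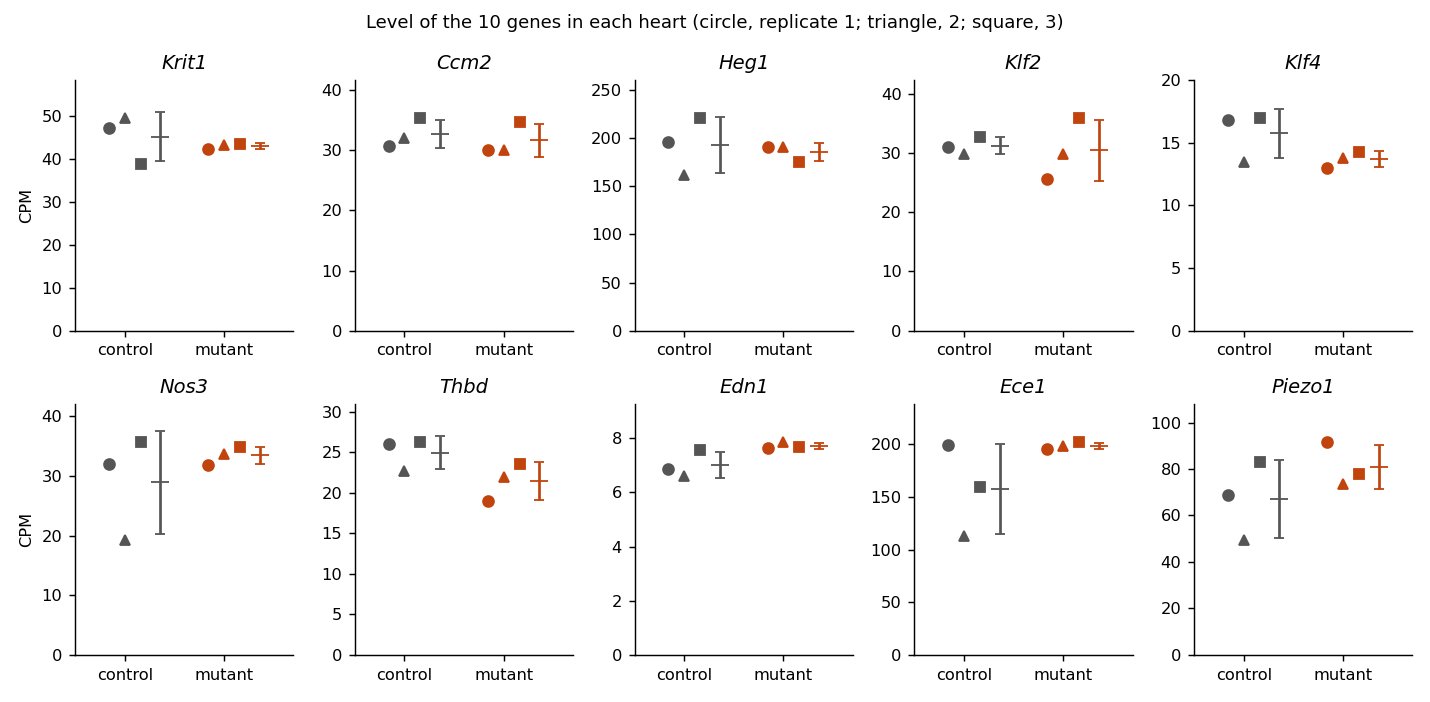
Level of each of the 10 genes in CPM (y axis, from 0) in 3 control and 3 mutant hearts, 1 symbol a heart, with the mean and SD of each group beside the symbols. The groups overlap in every panel except that of Edn1, and control replicate 2 (triangle) is the lowest heart for Nos3, Edn1, Ece1, Piezo1 and Heg1.

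The 3 genes of the CCM complex and its receptor were close to equal in the groups. Krit1, the adaptor, was 47.2, 49.6 and 38.7 CPM in control hearts and 42.3, 43.3 and 43.5 CPM in mutant hearts. The mutant hearts lay together inside the range of the control hearts. This gave a log2 fold change of -0.07 with a standard error of 0.10 and a 95% interval of -0.30 to 0.16. Ccm2, the scaffold that links Krit1 to MEKK3, was 30.8, 32 and 35.4 CPM in control hearts and 30.2, 30.0 and 34.8 CPM in mutant hearts. Each group held 1 heart near 35 CPM, replicate 3, and the log2 fold change of -0.05 had the narrowest interval of the 10 genes, -0.26 to 0.17. Heg1, the receptor, was 196, 162 and 221 CPM in control hearts and 191, 191 and 175 CPM in mutant hearts. The mutant values again fell within the control range (log2 fold change -0.06, 95% interval -0.32 to 0.21). For these genes edgeR's adjusted p was 0.72, 0.79 and 0.81. The intervals leave room for changes up to the bounds given, and levels in endothelial cells alone were not measured.

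Klf2 was about equal on average and spread most in the mutant hearts. It was 31.1, 29.9 and 32.7 CPM in control hearts and 25.6, 29.8 and 35.9 CPM in mutant hearts, so that the lowest and the highest heart of all 6 were both mutant. Its log2 fold change was -0.04 with a 95% interval of -0.32 to 0.24 (adjusted p = 0.88 by edgeR). Klf4 was 16.8, 13.5 and 17.0 CPM in control hearts and 13, 13.8 and 14.3 CPM in mutant hearts. The mutant hearts were at the level of control replicate 2 and under the other controls, with a log2 fold change of -0.20, a standard error of 0.11 and a 95% interval of -0.47 to 0.06 (adjusted p = 0.35 by edgeR). Control replicate 2 was the only control heart within the mutant range, so leaving it out had to set the groups apart. The log2 fold change of Klf4 was then -0.30 (adjusted p = 0.25 by edgeR). Leaving out control replicate 1 or 3 instead gave -0.15 each.

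Neither of the KLF targets passed the test. Nos3 was 32, 19.2 and 35.7 CPM in control hearts and 31.9, 33.6 and 34.8 CPM in mutant hearts. A single heart, control replicate 2, stood under the other 5, which lay within 31.9 to 35.7 CPM. The log2 fold change of 0.21 (95% interval -0.25 to 0.66, adjusted p = 0.58 by edgeR) rested on that heart and was -0.02 without it. Thbd was 26.1, 22.6 and 26.2 CPM in control hearts and 19.0, 21.9 and 23.6 CPM in mutant hearts. Its groups overlapped only through control replicate 2 and mutant replicate 3. The log2 fold change was -0.22 with a standard error of 0.11 and a 95% interval of -0.47 to 0.02 (adjusted p = 0.29 by edgeR). It was -0.14 with mutant replicate 1 left out.

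The endothelin genes were higher on average in mutant hearts without passing the test. Edn1 was 6.88, 6.60 and 7.56 CPM in control hearts and 7.64, 7.85 and 7.69 CPM in mutant hearts. The groups were apart by a small gap between control replicate 3 and mutant replicate 1, and when all libraries were thinned to the smallest total they overlapped. Its log2 fold change was 0.14 (95% interval -0.12 to 0.40, adjusted p = 0.51 by edgeR). Ece1 was 199, 113 and 160 CPM in control hearts and 196, 198 and 202 CPM in mutant hearts. The mutant hearts were almost equal to each other and to control replicate 1, and the other 2 control hearts were lower. The log2 fold change of 0.33 was the highest of the 10 genes and had a standard error of 0.17 and a 95% interval of -0.07 to 0.74 (adjusted p = 0.33 by edgeR). Leaving out control replicate 1 raised it to 0.54, and leaving out control replicate 2 lowered it to 0.15.

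Piezo1, the stretch-activated channel, was 68.6, 49.3 and 83.0 CPM in control hearts and 91.5, 73.4 and 78.0 CPM in mutant hearts. The highest heart was mutant and the lowest was control replicate 2, with the others in between (log2 fold change 0.27, 95% interval -0.13 to 0.68, adjusted p = 0.41 by edgeR). Leaving out control replicate 2 or 3 gave 0.10 or 0.46.

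Some of these genes share exon bases with a gene on the other strand in the GENCODE vM21 annotation, and the sources used here say neither whether counting used strand nor how reads in shared exons were assigned. Piezo1 shares 24.6% of its exon bases with Ctu2, a tRNA thiolation gene, and Nos3 shares 25.2% with the antisense transcript Gm15587 and 7.1% with Atg9b, an autophagy gene. Ctu2 was 12.1, 12.2 and 12.1 CPM in control hearts and 13.6, 13.8 and 16.1 CPM in mutant hearts (adjusted p = 0.23 by edgeR). Atg9b reached at most 2.56 CPM and Gm15587 at most 0.68 CPM in any heart. The counted level of Ctu2 was under that of Piezo1, and those of both partners of Nos3 were under that of Nos3. If reads in shared exons were left out as ambiguous, these levels do not show how far the overlap bears on Piezo1 and Nos3, per kilobase or in CPM. Krit1, Ccm2, Klf2, Klf4, Thbd and Ece1 share no exon base with another gene there.

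Per kilobase of exon (merged exons of the basic vM21 annotation), the 10 genes spanned a wide range of levels, with overlaps between neighbours. In control hearts Ece1 had 32.7 ± 8.92 CPM per kilobase (SD, n = 3), above all others. Heg1 with 18.5 ± 2.82, Klf2 with 16.9 ± 0.78 and Ccm2 with 15.7 ± 1.14 followed, and their hearts overlapped. Piezo1 with 8.15 ± 2.06, Krit1 with 7.53 ± 0.95, Nos3 with 7.01 ± 2.09 and Thbd with 6.71 ± 0.54 also overlapped among themselves. Klf4 with 5.20 ± 0.65 and Edn1 with 3.28 ± 0.23 CPM per kilobase had the lowest means. The hearts of Klf4 overlapped those of Nos3, whose control replicate 2 was low, and those of Edn1 lay under Klf4. Klf2 was thus above its relative Klf4 per kilobase in every control heart. The place of Krit1 and Ccm2 depends on the length used: with every annotated exon, retained introns included, they had 2.07 and 8.93 CPM per kilobase. In mutant hearts Ece1 had 41.3, Klf2 16.5, Klf4 4.53 and Edn1 3.61 CPM per kilobase.

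The hearts of the control group differed from each other more than those of the mutant group. On the log2(CPM + 1) scale, 7 of the 10 genes had the larger SD in control hearts, as did 62.4% of all tested genes. The median SD of the 10 genes was 0.18 in control and 0.067 in mutant hearts, and that of all tested genes 0.13 and 0.10. Of the 10 genes, 3 had their lowest heart in mutant replicate 1 (Klf2, Klf4 and Thbd), against 19.8% of all tested genes. Another 5 had it in control replicate 2 (Nos3, Edn1, Ece1, Piezo1 and Heg1), against 23.6% of all tested genes. Krit1 went the other way, with its highest level in that heart and its lowest in control replicate 3.

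Endocardial markers were low in the same heart. The 8 endocardial markers, among them the natriuretic peptide clearance receptor Npr3 and the transcription factor Nfatc1, had a mean log2 level of 6.30, 5.41 and 5.77 in control hearts and 6.33, 6.28 and 6.18 in mutant hearts, so that control replicate 2 was lowest and control replicate 1 was like the mutant hearts. Of these markers, 7 were higher and 1 lower in mutant hearts, and 0 passed the adjusted threshold by edgeR or DESeq2. The 8 coronary capillary markers, among them the lipid transporters Cd36 and Fabp4, ran opposite, with 4.44, 5.22 and 5.02 in control hearts and 4.21, 4.30 and 4.21 in mutant hearts. All 8 were lower in mutant hearts, by log2 fold changes of -0.04 to -1.36, and 5 of them passed DESeq2's adjusted threshold (Cd36, Fabp4, Gpihbp1, Mgll and Meox2) and 0 that of edgeR. The 10 endothelial markers together differed little, 6.27, 6.17 and 6.41 in control hearts and 6.29, 6.31 and 6.24 in mutant hearts, although Esam, a junction protein, was lower by DESeq2 (adjusted p = 0.027). Markers of red blood cells, which descend from Tie2Cre-labelled cells in part, were at 4.63, 5.20 and 5.88 in control hearts and 4.45, 4.58 and 4.87 in mutant hearts, with 7 of 8 genes lower and 0 past the adjusted threshold by edgeR or DESeq2. Among markers of the other cell types, DESeq2 passed Cnn1 (log2 fold change 0.48) and Myh11 (-2.40) of smooth muscle, Myh6 (0.48) of cardiomyocytes and Upk3b (0.57) of the epicardium, and edgeR passed none. The part of these markers in the levels of the 10 genes was not tested. In whole hearts, fewer cells of a type and less RNA per cell cannot be told apart.

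**Figure D2:**
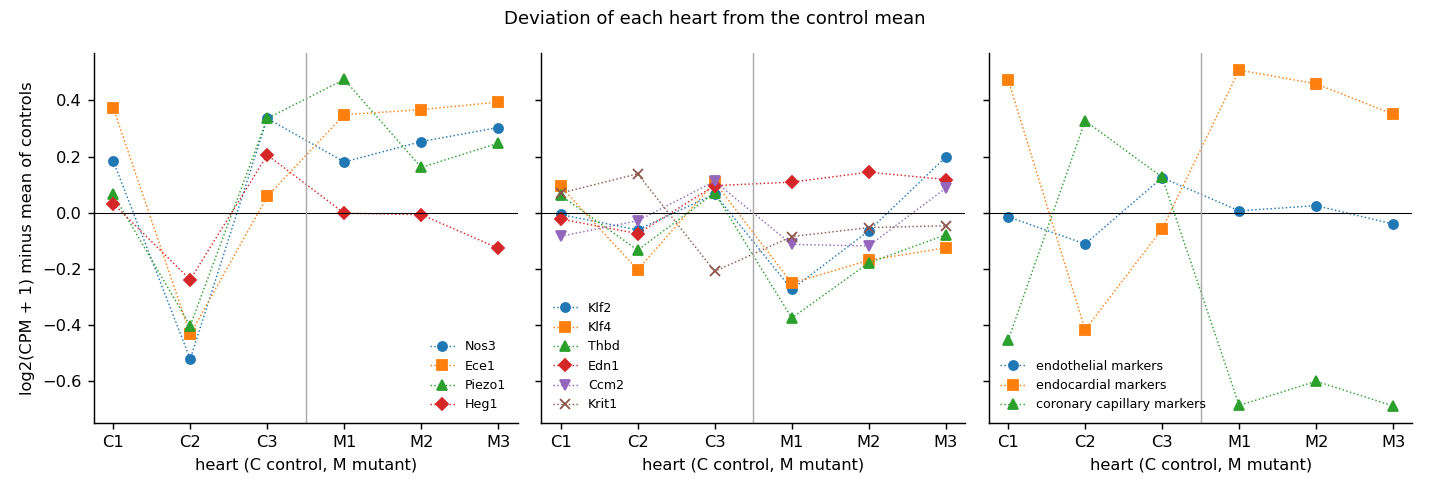
Difference of each heart from the mean of the control hearts on the log2(CPM + 1) scale (y axis) for Nos3, Ece1, Piezo1 and Heg1 (left), the other 6 genes (middle) and 3 lists of markers (right), with the control hearts C1 to C3 and the mutant hearts M1 to M3 on the x axis. Every gene of the left panel is lowest at C2, as are Edn1 in the middle panel and 23.6% of all tested genes. Endocardial markers are at 5.41 and coronary capillary markers at 5.22 there, their lowest and highest hearts. A link between the genes and the markers was not tested. Endothelial markers are also lowest at C2, with 6.17.

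Each gene was also read relative to the mean of the endothelial markers in its own heart. The differences between the groups hardly moved, because the markers themselves differed by only -0.003 between the groups. Ece1 was higher by 0.37 with or without this step, Piezo1 by 0.30 against 0.29, and Nos3 by 0.25 on both scales. Edn1 was higher by 0.13 and remained the single gene of the 10 whose groups did not overlap, against 12% of all tested genes above and 8.75% below on this scale. Its exact two-sided permutation p of 0.1 is the smallest that 3 against 3 hearts can give, and the other 9 genes had values from 0.2 to 0.8.

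Relative to the endocardial markers, a scale added after the values were seen, all 10 genes were lower in mutant hearts. The markers themselves were higher by 0.44 in mutant hearts, with log2 fold changes from -0.09 (Tmem100) to 1.25 (Hapln1) and a median of 0.34. A gene with equal CPM in both groups therefore reads -0.44 on this scale. Krit1, Ccm2, Heg1 and Klf2 were lower by about that much, with differences of -0.50, -0.49, -0.48 and -0.49. Ece1 with -0.07, Piezo1 with -0.14 and Nos3 with -0.19 came nearest to the endocardial markers. Ece1 in particular stayed at 1.35, 1.43 and 1.56 above the markers in control hearts and 1.29, 1.35 and 1.49 in mutant hearts, where its SD between control hearts was 0.11 against 0.41 without the step. The SD between control hearts was smaller on this scale for 2 of the 10 genes, Ece1 and Nos3, and larger for the other 8, such as Ccm2 with 0.50 against 0.10. Klf4 with -0.62 and Thbd with -0.65 were farthest from them, and in these and in Heg1 all mutant hearts lay below all control hearts (exact permutation p = 0.1 each). On this scale 21.1% of all tested genes did so and 0.432% lay above, and the -0.48 of Heg1 is near the value of a gene with equal CPM.

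**Figure D3:**
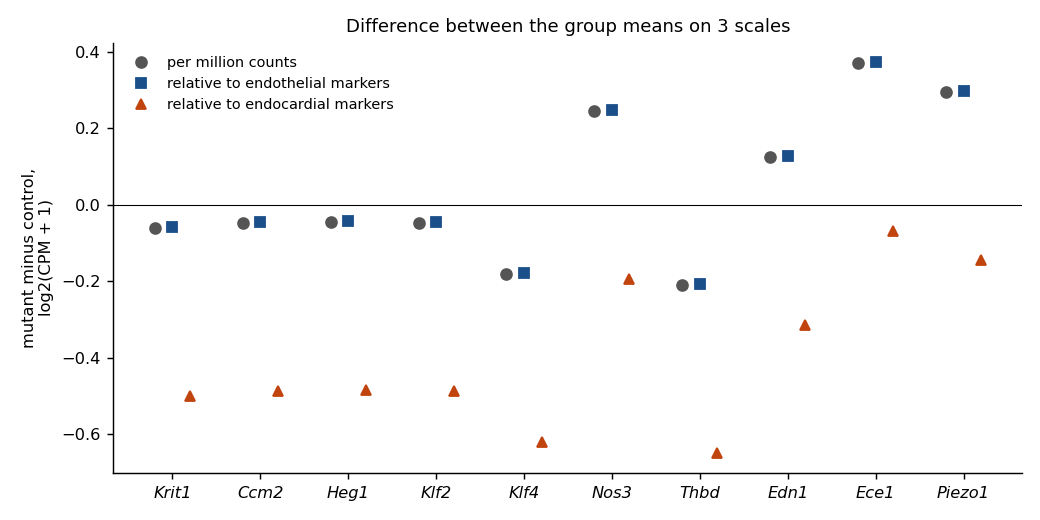
Difference of the group means, mutant minus control, on the log2(CPM + 1) scale (y axis) for each of the 10 genes (x axis), per M counts, relative to endothelial markers and relative to endocardial markers. The first 2 symbols of a gene nearly coincide, and the third is lower for every gene, -0.07 for Ece1 and -0.65 for Thbd.

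Around the complex and in the kinase arm, single genes passed by DESeq2 while each list held genes of both directions. Of the 12 tested genes of the CCM complex and its partners, 3 were higher and 9 lower, with a median log2 fold change of -0.06. DESeq2 passed 1 as higher at the adjusted threshold, against 2.67% of all genes it tested. That gene was Ccm2l, a Ccm2 relative of endothelial cells that competes with Ccm2 for Krit1. It was 10.1, 7.69 and 8.83 CPM in control hearts and 11.7, 12.9 and 13.4 CPM in mutant hearts. All mutant hearts lay above all control hearts, and the log2 fold change was 0.51 with a standard error of 0.13 (adjusted p = 0.021 by DESeq2 and 0.11 by edgeR). Ccm2 itself, at -0.05, did not follow it. Pdcd10, the third protein of the complex, was 35.1, 40.1 and 30.7 CPM in control hearts and 27.9, 31.3 and 30.2 CPM in mutant hearts, a log2 fold change of -0.25 (adjusted p = 0.26 by edgeR). Among its partner kinases Stk24 was at -0.12, Stk25 at 0.03 and Stk26 at 0.30. With control replicate 1 left out, Stk26 was at 0.56 and passed by edgeR (adjusted p = 0.043). In that run 751 genes passed, Ccm2l among them (log2 fold change 0.62, adjusted p = 0.044 by edgeR). With control replicate 3 left out, Stk26 was at 0.14. The GTPases Rap1a and Rap1b, which bring Krit1 to junctions, were at -0.21 and -0.12, their effector Rasip1 at -0.05 and the Krit1 ligand Itgb1bp1 at -0.16. With all 6 hearts, none of these genes other than Ccm2l passed by edgeR or DESeq2 at the adjusted threshold.

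The kinase arm had 3 genes higher and 3 lower among 6, with a median log2 fold change of 0.02. Map3k3, the kinase that Ccm2 binds, was at 0.05, the next kinase Map2k5 at 0.06 and Mapk7, the ERK5 kinase, at 0.18. Mapk7 had all mutant hearts above all control hearts (26.9, 23.9 and 26.2 CPM against 29.5, 29.1 and 28.5 CPM, adjusted p = 0.26 by edgeR). Mef2a, one of the MEF2 factors and abundant in heart muscle, was 343, 398 and 347 CPM in control hearts and 293, 289 and 258 CPM in mutant hearts. Its groups were apart, with a log2 fold change of -0.37 and a standard error of 0.09 (adjusted p = 0.0095 by DESeq2 and 0.11 by edgeR). Mef2c was at -0.08 and Mef2d at -0.01, with overlapping groups. Klf2, whose promoter held the MEF2 match shown above, was at -0.04.

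**Figure D4:**
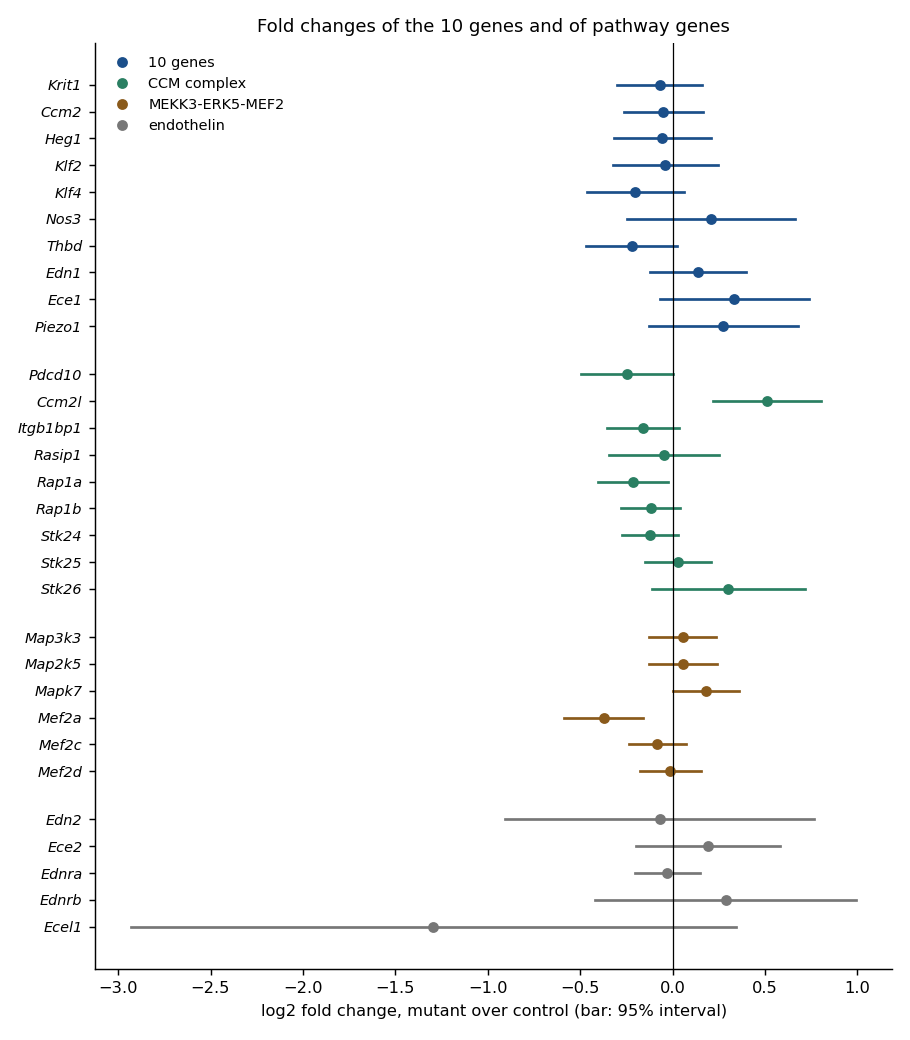
Log2 fold change, mutant over control (x axis), with its 95% interval for the 10 genes and for every other tested gene of the CCM complex, MEKK3-ERK5-MEF2 and endothelin lists. All 10 intervals of the top group include 0, while that of Ccm2l (0.51) lies above it and those of Mef2a (-0.37) and Rap1a (-0.21) below it.

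Among genes known to respond when the CCM complex is lost, Vcan, the versican of cardiac jelly, was 251, 149 and 221 CPM in control hearts and 310, 241 and 229 CPM in mutant hearts. Its log2 fold change was 0.33 with a standard error of 0.19, and control replicate 2 was again the lowest heart. Leaving out that heart gave 0.14, and leaving out mutant replicate 1 gave 0.18. The proteases that cut versican gave 0.19 for Adamts1, -0.13 for Adamts4 and 0.06 for Adamts5. None of these 4 passed a test (adjusted p of 0.37 or more by edgeR). Of the 7 genes of this list other than the 10, 3 were higher and 4 lower. Of the lower ones, 3 had groups that did not overlap and 1 passed DESeq2's adjusted threshold. Of all tested genes, 12.8% lay below without overlap, and DESeq2 passed 3.43% of those it tested as lower.

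Of 11 other flow-induced genes, 3 were higher and 8 lower. DESeq2's adjusted threshold was passed by 1 as higher and 2 as lower, against 2.67% and 3.43% of all genes it tested. Cav1, the coat protein of caveolae that binds Nos3, was 219, 410 and 330 CPM in control hearts and 190, 201 and 185 CPM in mutant hearts, a log2 fold change of -0.74 with the groups apart (adjusted p = 0.0031 by DESeq2 and 0.13 by edgeR). Its control hearts followed the order of the coronary capillary markers. Nqo1, a quinone reductase, was lower by a log2 fold change of -0.78 (adjusted p = 0.036 by DESeq2 and 0.14 by edgeR), and Smad6, an inhibitor of BMP signaling, was higher by 0.35 (adjusted p = 0.030 by DESeq2 and 0.12 by edgeR). Klf6, a further KLF factor, was 76, 88.8 and 96.1 CPM in control hearts and 73.0, 75.6 and 71.4 CPM in mutant hearts, lower by -0.25 without passing (adjusted p = 0.18 by DESeq2 and 0.20 by edgeR). All 6 genes other than Edn1 and Ece1 on the flow-repressed list were lower in mutant hearts, but the direction of 4 of them turned when a single heart was left out. Leaving out control replicate 3 turned Ctgf to 0.24, Cyr61 to 0.14 and Ccl2 to 0.07, and Vcam1 was at 0.16 when control replicate 2 was left out. With all hearts, the 6 ranged from -0.04 to -1.66 and included Angpt2, an angiopoietin of remodeling vessels, with 2.0, 2.69 and 7.38 CPM in control hearts and 1.49, 1.22 and 1.03 CPM in mutant hearts. Angpt2 passed by DESeq2 (adjusted p = 0.0054) and not by edgeR (0.14), and without control replicate 3 its log2 fold change was -0.89.

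The partners of the endothelin genes did not pass. Ednrb, the endothelin receptor of endothelial cells, was 230, 79.9 and 149 CPM in control hearts and 180, 189 and 190 CPM in mutant hearts, the same order of control hearts as Ece1. Its log2 fold change of 0.29 had a standard error of 0.31, and was 0.71 with control replicate 1 left out and -0.02 with control replicate 2 left out. Ednra, the receptor of muscle cells, was at -0.03, the second converting enzyme Ece2 at 0.19, and Edn2 and Ecel1 were under 1 CPM in every heart.

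Of 10 genes of the nitric oxide list other than Nos3, 7 were higher and 3 lower, with a median of 0.10. Of all 17125 tested genes, 8509 were higher, with a median of -0.0017. At an unadjusted p under 0.05 by edgeR, 1 gene of the list was higher and 1 lower, against 9.48% and 9.98% of all tested genes. Gucy1a3, a subunit of the receptor for nitric oxide, was 87.2, 74.2 and 86.3 CPM in control hearts and 105, 104 and 103 CPM in mutant hearts (log2 fold change 0.33, adjusted p = 0.020 by DESeq2 and 0.10 by edgeR). Nostrin, a trafficking protein that moves Nos3 from the membrane, was 5.70, 6.88 and 6.82 CPM in control hearts and 4.65, 3.83 and 3.32 CPM in mutant hearts (log2 fold change -0.71, adjusted p = 0.014 by DESeq2 and 0.11 by edgeR). Both had groups that did not overlap, while those of Nos3 did. Nos2, the inducible synthase, was between 1.68 and 4.19 CPM in all hearts, and Nos1 was not tested for want of counts.

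Of the thrombomodulin list, 4 of 7 genes other than Thbd were higher and 3 lower. Of the lower ones, 1 had groups that did not overlap and passed DESeq2's adjusted threshold, and 0 passed that of edgeR. Over all tested genes, 12.8% lay below without overlap, and DESeq2 passed 3.43% of those it tested as lower. Procr, the protein C receptor, was 9.80, 2.89 and 3.18 CPM in control hearts and 8.37, 7.38 and 4.27 CPM in mutant hearts, with overlapping groups. Of 13 mechanosensors other than Piezo1, 7 were higher and 6 lower and none passed by edgeR or DESeq2. The relative Piezo2 was at 0.13 with a standard error of 0.16.

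**Figure D5:**
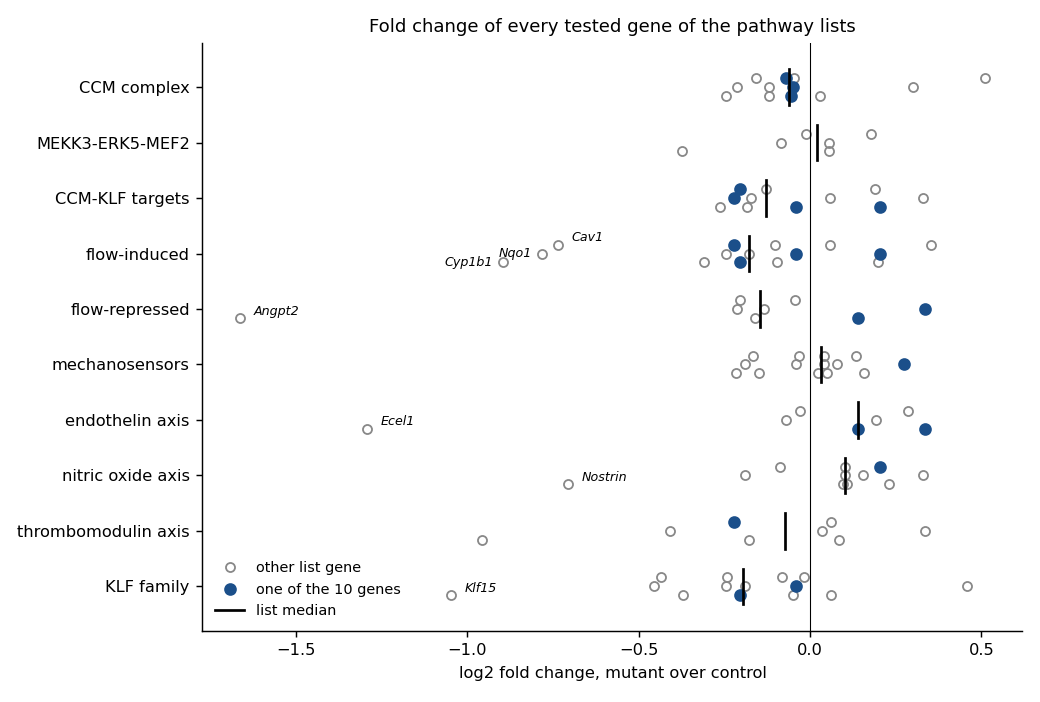
Log2 fold change, mutant over control (x axis), of every tested gene of 10 lists (y axis), with filled symbols for the 10 genes and a bar for the median of the list. The 10 genes lie between -0.22 and 0.33, and the named genes to the left include Angpt2 at -1.66 and Klf15 at -1.05.

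Klf2 and Klf4 were compared with 12 other KLF factors. Of these, 2 were higher and 10 lower in mutant hearts, with a median log2 fold change of -0.22. At an unadjusted p under 0.05 by edgeR, 4 were lower (Klf6, Klf9, Klf13 and Klf15), against 9.98% of all tested genes. Klf15, a factor of muscle metabolism, was 12.1, 20.8 and 16.2 CPM in control hearts and 8.19, 6.98 and 8.58 CPM in mutant hearts. The groups were well apart and the log2 fold change was -1.05 with a standard error of 0.19 (adjusted p = 0.081 by edgeR). Klf13 was at -0.44 (adjusted p = 0.013 by DESeq2 and 0.11 by edgeR), and Klf15 also passed by DESeq2. Klf2 at -0.04 was near equality, and Klf4 at -0.20 was close to the median of the others. Of 14 immediate early genes, which respond fast to handling and stress, 0 passed an unadjusted p under 0.05 by edgeR in either direction and 0 an adjusted one by DESeq2, with a median of -0.05.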

How the data were processed

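RNA was sequenced from 3 control and 3 mutant whole hearts at embryonic day 13.5. The authors deposited raw read counts per gene; per the methods and the submitters' processing notes, reads were mapped to GRCm38 (mm10) with STAR 2.4.2a and GENCODE vM6 and counted with summarizeOverlaps, and the strand setting is not given in the sources used here. The deposited comparison table holds the authors' DESeq2 mean signal, fold changes and p-values, which were not used; only its gene symbols were read. The counts were analysed with edgeR 4.0.16 (R 4.3.3) after filterByExpr (minimum count 10, minimum total 15) and TMM scaling, with condition as the only term and a threshold of 0.05. DESeq2 1.42.0 was an alternative. The standard error is the fold change divided by the square root of F, and 95% intervals come from it. Marker levels are means of log2(CPM + 1). Lengths are from GENCODE vM21. The steps were tested on simulated data.

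The 10 genes and all lists were chosen with earlier results of these data known. Named genes were the 10, all tested genes of 3 lists, a few relatives and any list gene passing edgeR or DESeq2, except that some of these results are not reported here. No label says whether same-numbered hearts share a litter, and p-values measure only the spread between these 6 hearts. Depth was 28948836 to 89675692 counts, and the biological coefficient of variation was 0.15.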

Additional observations from a re-analysis of the deposited data

How the results depend on the processing

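None of the 10 genes passed an adjusted p of 0.05 under any alternative run: RLE size factors, DESeq2, no count filter, a mean of at least 1 CPM, thinning, a replicate block or leaving out each heart. Over all genes the count of 0 became 1013 with DESeq2, 603 with every gene that had a count, 14 with the replicate block and 0 to 751 with 1 heart left out (751 if control replicate 1, 3 if control replicate 2). The cause was not tested. Same-numbered hearts had correlations of 0.003, -0.124 and -0.108 in their deviations, and other pairs ran from -0.033 to 0.134. With 3 hearts a group, these values cannot tell whether same-numbered hearts share a litter. At an unadjusted p, 1 of the 10 genes (Ece1) passed with DESeq2 and 1 with every gene that had a count, and 0 to 2 with a heart left out, namely Ece1 (control replicate 1 left out), Klf4 and Thbd (control replicate 2), Piezo1 (control replicate 3) and Thbd (mutant replicate 3). Genes without overlap numbered 0 after thinning and 1 to 4 with a heart left out (4 if control replicate 2 or mutant replicate 3), and 2 to 5 relative to endothelial markers, where groups of 2 separate more easily. The shares of all tested genes, by unadjusted p or without overlap, are not given for these alternative settings. The counts therefore do not show that the 10 genes differ from other genes. Fold changes changed sign for Nos3 (-0.015 to 0.38), Krit1 (-0.17 to 0.0022), Heg1 (-0.16 to 0.054), Ccm2 (-0.12 to 0.010) and Klf2 (-0.17 to 0.073) with a heart left out, and relative to endocardial markers, added after the data were seen, for Nos3 (-0.19), Edn1 (-0.32), Ece1 (-0.069) and Piezo1 (-0.14). Edn1, the least abundant of the 10, lost its narrow separation in a single random thinning, and whether depth or the draw closed the gap was not tested.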
